A study of Mus musculus with 32 samples.

Results

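This comparison sets the 2 replicate populations of the Withdrawal-Seizure Resistant line, WSR-1 and WSR-2, against each other in mice that breathed air and never received ethanol. Its members are the 8 of 32 arrays whose titles name WSR-1 or WSR-2 and air: 4 arrays of WSR-1 and 4 of WSR-2, with 2 female and 2 male arrays in each population. Each array carried prefrontal cortex RNA pooled from 2 mice, 2.5 µg from each, so 16 mice stand behind the 8 arrays. The series as a whole holds seizure-prone (WSP) and seizure-resistant (WSR) mice of both sexes, each line kept as 2 independently derived populations, all bred from heterogeneous HS/Ibg stock. All mice were adults with no earlier drug exposure, and tissue was taken 8 h after 72 h in a chamber. Air controls breathed plain air and were given pyrazole HCl at 68.1 mg/kg, an alcohol dehydrogenase inhibitor that the ethanol groups received too, so no group was free of it. EtOH groups breathed ethanol vapour after an ethanol injection of 1.5 g/kg in WSR-1, WSR-2 and WSP-1 and of a higher dose in WSP-2. The study pooled the replicate populations of a line in its own comparisons, and the question here is how far those populations differed from each other before any ethanol.

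Selective breeding for a drug response changes the frequency of alleles that affect the response, but in small closed populations other alleles also drift to high or low frequency by chance. Replicate populations selected in parallel for the same trait are kept for that reason: a difference between lines that appears in both replicates is less easily laid to drift than one seen in a single population. The prefrontal cortex, a region of executive control that sends excitatory output to striatum and midbrain, is one of the areas studied for adaptation to alcohol.

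The arrays were spotted cDNA clones hybridised with RNA labelled with 33P in 1 colour. A level is the spot intensity after background correction and quantile normalisation over the 32 arrays, on a log2 scale whose floor is 5.64, and a difference is WSR-2 minus WSR-1 in that scale unless stated otherwise. Of 5355 spots, 4696 clone spots were tested and 1116 of them carry the title of a named gene; the other 3580 are expressed sequence tags (ESTs) or otherwise unnamed. Most clones were dim: 84.6% had a mean level within 1 log2 unit of the floor, 1673 were above background on all 8 arrays and 118 on none of them. Such dim clones have compressed differences. The background, 1 value per array, was 17.7 ± 6.09 intensity units in WSR-1 and 18.1 ± 5.41 in WSR-2 (SD, n = 4 each, exact permutation p = 0.83, 2-sided). The share of clones above background was 73.2% ± 7.73 in WSR-1 and 62.6% ± 12.4 in WSR-2 (SD, n = 4 each, exact permutation p = 0.286, adjusted p = 0.83 over 3 array measures). The smallest p that 4 arrays against 4 can give is 0.0286.

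The 192 control spots, marked tgDNA in the files, sorted the arrays into sets in which those spots rose and dipped together. Among the 32 arrays, 10 sets held more than 1 array, 24 arrays in all, and each of the 10 sets held arrays of a single replicate number. Of the 8 air arrays of WSR, 7 belonged to such a set and no set held more than 1 of them. The 2 male WSR-1 air arrays each shared a set with a male WSP-1 air array. The second female WSR-1 air array shared one with a female WSR-1 EtOH array. The 2 female WSR-2 air arrays each shared one with a male WSR-2 EtOH array and a male WSP-2 air array. The 2 male WSR-2 air arrays each shared one with a female WSR-2 EtOH array and a male WSP-2 EtOH array. What a set stands for is not given in the labels. Because WSR-1 and WSR-2 arrays never fell in the same set, population and array set cannot be told apart in any result that follows.

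Between the populations, 1 of 4696 clones (0.0213%) passed an adjusted p of 0.05 in limma, fitted on the 8 air arrays with sex as a block. It was EST clone AI451201, which has no gene name in the files. In WSR-1 its level was 6.70 and 6.43 on the female arrays and 6.64 and 6.62 on the male arrays. In WSR-2 it was 5.84 and 5.72 on the female arrays and 5.80 and 5.80 on the male arrays. All 4 WSR-1 arrays lay above all 4 WSR-2 arrays, with a wide gap between them. The clone was above background on 4 WSR-1 arrays and on 0 WSR-2 arrays, so its level was at least 1.64-fold higher in WSR-1. A fold against an undetected group is here the bright group's mean over the dim group's, each dim array counted at no less than its lowest signal that was well above background. The fitted difference was -0.81 (SE 0.10, limma adjusted p = 0.0434). Leaving out any 1 of the 8 arrays kept the difference between -0.87 and -0.76 but moved the adjusted p in limma to between 0.0739 and 0.308.

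The level of AI451201 on the other arrays of the series set these values in context. Its 6 highest levels among 32 arrays were those of the 4 WSR-1 air arrays and the 2 male WSP-1 air arrays, none under 6.43. Both of those WSP-1 arrays share a control-spot set with a male WSR-1 air array. The second female WSR-1 air array shares one with a female WSR-1 EtOH array, which read 5.80 and was not above background. On the other 26 arrays it was at most 6.04. Those 26 include both female WSP-1 air arrays and every EtOH array, WSR-1 among them. In EtOH the population difference of the same clone was 0.01 (SE 0.07, limma adjusted p = 0.989). The EtOH arrays carried RNA of other mice of the same populations, and they did not show the difference measured in air.

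**Figure D1:**
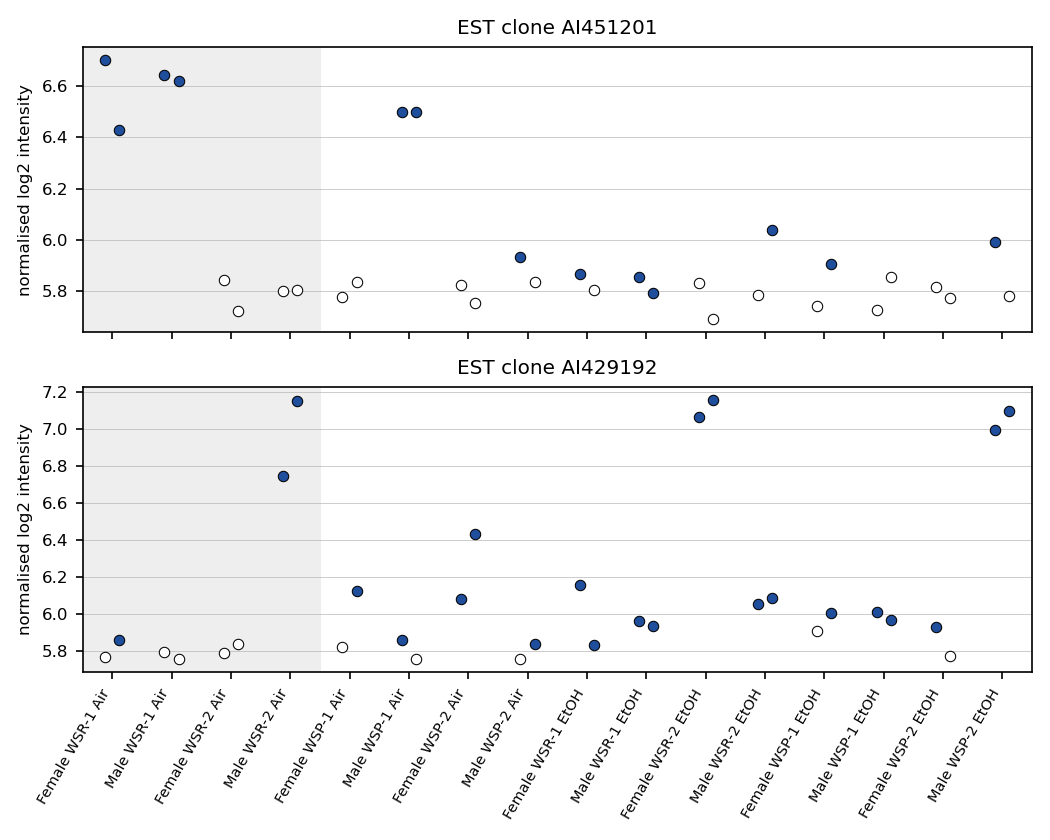
Normalised log2 intensity of EST clones AI451201 and AI429192 on every array, by sex, population and treatment; each point is 1 array, filled where the clone was above background, and the shaded columns are the 8 WSR air arrays. AI451201 was high on the 4 WSR-1 air arrays and 2 male WSP-1 air arrays, and AI429192 on 6 arrays that make up 2 control-spot sets.

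The clones printed around AI451201 were mostly lower in WSR-2 as well, by varying amounts. AI451201 lies in field 2, grid f, column 28, row 8, and EST clone AI451396 lies directly beside it in row 9. The other 3 spots that share a side with it differed by less, AI451196 by -0.31, AI451203 by -0.28 and AI449282 by -0.47, and the diagonal spot AI449281 differed by -1.05. AI451396 measured 6.37 and 6.85 on the female and 6.64 and 6.66 on the male WSR-1 arrays. On the WSR-2 arrays it measured 5.82 and 5.77 in females and 5.73 and 5.81 in males, again without overlap and above background on none. Its difference was -0.85 (SE 0.12), at least 1.67-fold, and missed the threshold in limma (adjusted p = 0.0544). In the block of 25 clones spanning columns 26 to 30 and rows 5 to 9 of that grid, 25 of 25 were lower in WSR-2, 17 of them with an unadjusted p under 0.05, and the median difference was -0.50. The block was drawn after the values were seen. Over the 25 clones, the median excess over each clone's own median of 32 arrays was 0.97 on the second female WSR-1 array and 0.83 on the second male WSR-1 array. It was 0.06 and 0.11 on the first female and first male WSR-1 arrays, and between -0.09 and 0.01 on the WSR-2 arrays. Male WSP-1 air array 2, which shares a control-spot set with the second male WSR-1 array, came in at 0.91. The female WSR-1 EtOH array that shares a set with the second female WSR-1 array was at 0.03. In that block the excess lay on the second WSR-1 arrays, whereas AI451201 itself was high on all 4.

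An unadjusted p under 0.05 was reached by 337 clones (7.18%), where 234.8 would be expected with no difference at all. WSR-2 was lower in 205 of them (4.37%) and higher in 132 (2.81%). The median difference was -0.32 among the lower clones and 0.27 among the higher ones, against a median size of 0.07 over all 4696. In 184 clones (3.92%) the 4 arrays of one population did not overlap those of the other: 103 were lower (2.19%) and 81 higher (1.72%) in WSR-2. Named genes made up 68 of the 337, which is 6.09% of named gene clones, compared with 7.51% of the unnamed ones. Clones above background on all 8 arrays reached that p in 7.95% of cases and the remaining clones in 6.75%.

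The clones with a small p were not spread evenly over the array. Of the 337, 212 (62.9%) had an adjacent spot with a small p in the same direction, compared with 21.6% of the other clones that had an adjacent small-p spot in the direction of their own difference. In grid d of field 1, 49 of 300 clones were lower in WSR-2 with an unadjusted p under 0.05 and 0 were higher. In grid f of field 2 the numbers were 30 lower and 8 higher of 298, and in grid h of field 1 they were 4 lower and 22 higher of 299. A single direction thus prevailed within each of these 3 grids, and the direction differed between grids.

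**Figure D2:**
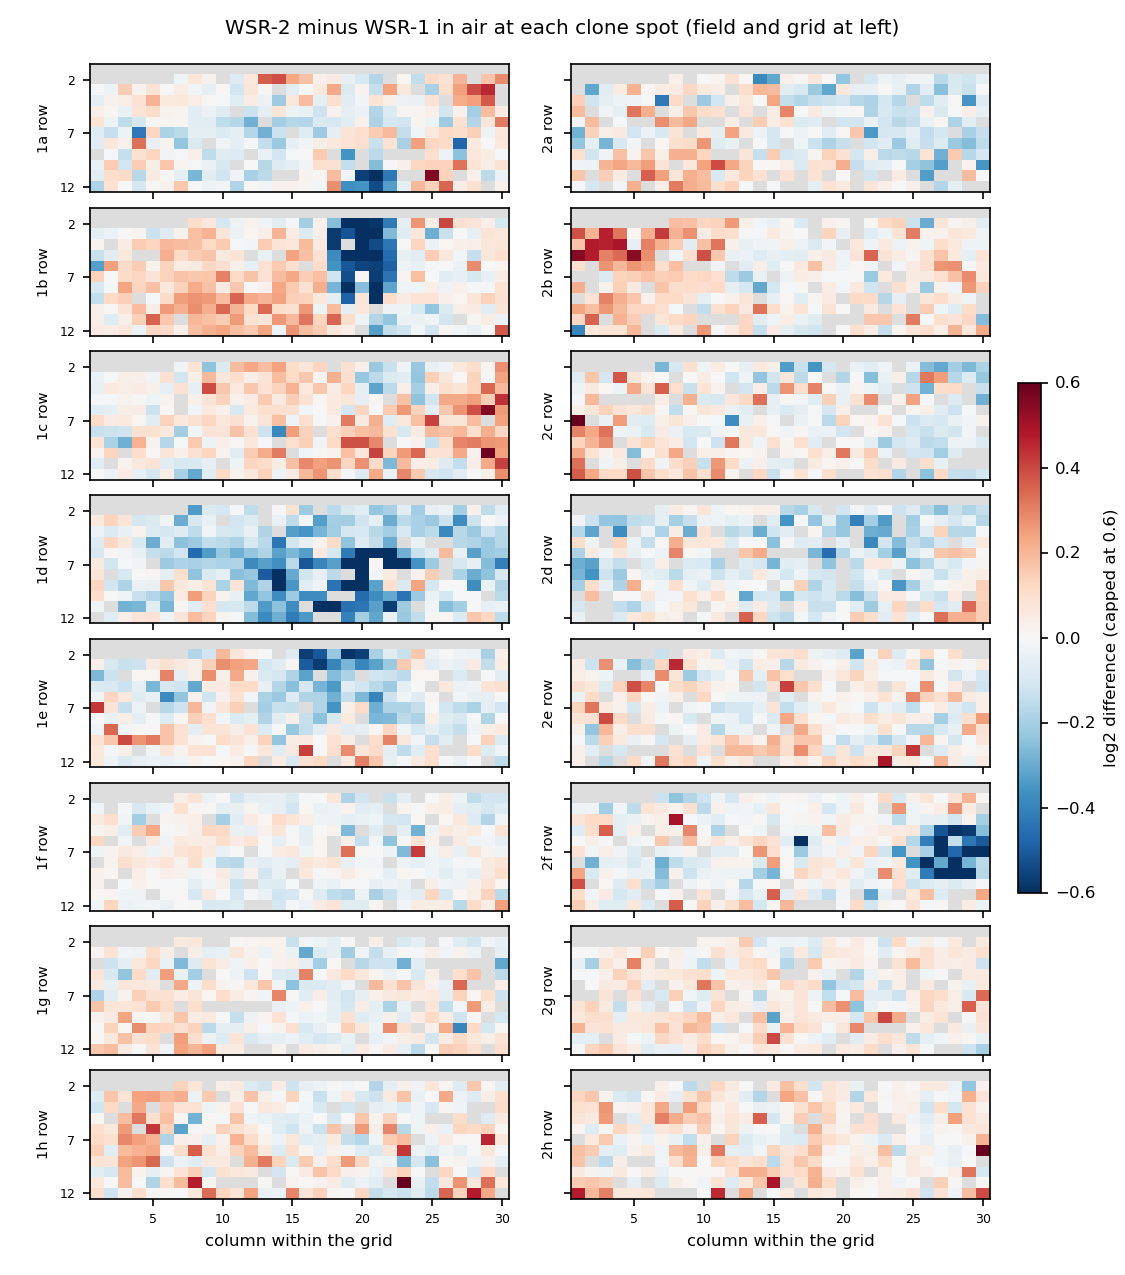
Map of the arrays with 1 square per clone spot, placed by column and row in each of 16 grids; colour gives the difference WSR-2 minus WSR-1 in air in log2 units, capped at 0.6, and grey squares are control or unidentified spots. Negative differences fill compact areas of grids b, d and e of field 1 and grid f of field 2, and positive ones a corner of grid b of field 2.

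Further areas on the map, also drawn after the values were seen, rested on different arrays of the same population. In grid b of field 1 (columns 18 to 22, rows 2 to 9), 36 of 39 clones were lower in WSR-2, with a median difference of -0.52. There the second female WSR-1 array stood 0.99 and the second male WSR-1 array 0.92 above the clones' own medians, while the first WSR-1 arrays were at 0.09 and -0.004. In grid d of field 1 (columns 12 to 24, rows 6 to 12) the order was turned round: 77 of 83 clones were lower in WSR-2, and among the 8 arrays the first female and first male WSR-1 arrays were highest, at 0.60 and 0.45. A female WSP-2 air array stood at 0.52 there. On the EtOH arrays, with other mice of both populations, the median difference in the first of these areas was 0.04 and in the second -0.001.

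An area that was higher in WSR-2 followed the control-spot sets. In grid b of field 2 (columns 1 to 5, rows 3 to 5), 14 of 15 clones were higher in WSR-2, with a median difference of 0.38. The excess was 0.80 on the second male WSR-2 array and 0.46 on the first female WSR-2 array, but 0.02 and -0.06 on the other WSR-2 arrays. Across all 32 arrays the 3 highest values in that area were 0.80, 0.77 and 0.74, and they belonged to the 3 arrays of 1 control-spot set: male WSR-2 air, male WSP-2 EtOH and female WSR-2 EtOH. The next 3 highest, 0.46, 0.38 and 0.32, belonged to the 3 arrays of another set, which holds the female WSR-2 air array with a male WSR-2 EtOH and a male WSP-2 air array. The area was therefore bright in arrays of both lines and both treatments. EST clone AI429192, weakly similar to NSD1, had the same kind of pattern elsewhere on the array: its 6 highest levels, from 6.75 to 7.16, were those of the 6 arrays of 2 control-spot sets, and the other 26 arrays were at or under 6.44. In air its difference was 0.58 and its WSR-2 arrays read 5.79 and 5.84 in females and 6.75 and 7.15 in males.

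How far such likeness reached was measured from pairs of clones in the same row. Spots 1 column apart had population differences correlated at 0.46 (Spearman, 4136 pairs), falling to 0.33 at 2 columns, 0.20 at 5 columns and 0.14 at 10 columns. Neighbouring clones share an array surface, and the pairs are not independent, so the correlations are given as a description with no test. At 1 column the correlation was 0.49 for WSR in EtOH and 0.50 for WSP in air, and at 10 columns 0.07 and 0.02. Subtracting from each clone the median of the surrounding spots, up to 3 away on each side, lowered the correlation to 0.23 at 1 column and to 0.07 at 2 columns. With that centring no clone passed in limma, 441 had an unadjusted p under 0.05, and 144 of those were among the 337 above. The difference of AI451201 became -0.34 and that of AI451396 -0.43.

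**Figure D3:**
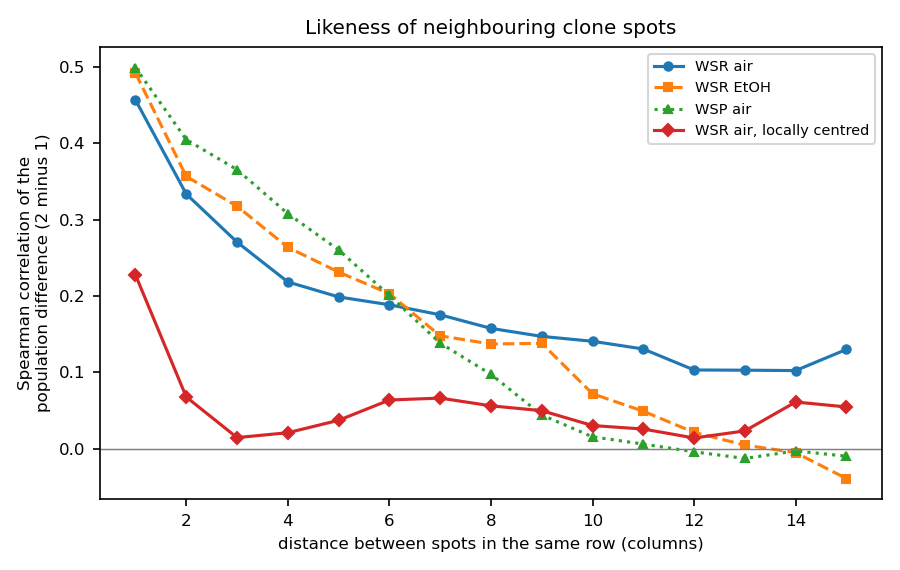
Spearman correlation of the population difference (replicate 2 minus replicate 1) between clone spots of the same row, by their distance in columns. Curves for WSR air, WSR EtOH and WSP air begin between 0.46 and 0.50 and decline with distance; after local centring the WSR air curve begins at 0.23.

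None of the 1116 named gene clones passed the adjusted threshold in limma (68 at unadjusted p under 0.05, 22 higher and 46 lower). The 10 with the smallest p in each direction are given as values; their adjusted p in limma lay between 0.60 and 0.68. Of the 10 lower in WSR-2, 5 lay in grid e and 4 in grid d of field 1, and 1 in grid f of field 2. In an area of grid e (columns 15 to 20, rows 2 to 3), 11 of 12 clones were lower in WSR-2, with a median difference of -0.45. That area was also drawn after the values were seen. Most of the 10 lay inside or near it or the areas described above. Delta-like 1 homolog, at column 8 and row 2 of grid d, did not. All 10 had neighbours whose median difference was negative as well, between -0.28 and -0.10.

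The clone for beta-A2-crystallin (AI324706), a structural protein of the lens, had the smallest p of any named gene. It read 6.51 and 6.40 in female and 6.46 and 6.25 in male WSR-1 arrays, and 5.73, 5.70, 5.99 and 5.94 in the corresponding WSR-2 arrays. The 2 populations did not overlap, and the difference was -0.57 (SE 0.11, limma adjusted p = 0.601). The precursor p105 of the NF-kappa-B transcription factor (AI323619) read 6.62, 6.40, 6.63 and 6.18 in WSR-1 and 5.74, 5.79, 6.06 and 5.87 in WSR-2, in the same order of arrays. Its groups were also apart, by a difference of -0.59 (SE 0.13, limma adjusted p = 0.629). Its 25 neighbouring clones were all lower in WSR-2, with a median of -0.26. Myosin-binding protein H (AI385643), a myosin-associated protein of muscle, differed by -0.56 (SE 0.13) with no overlap. Ribosomal proteins L19 and S3 of the large and small ribosomal subunits differed by -0.50 (SE 0.15) and -0.34 (SE 0.11) without overlap, and both spots lie within 2 columns of the crystallin spot at column 17.

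In grid d, fibroblast growth factor 12 (AI415248), an intracellular partner of voltage-gated sodium channels, measured 7.14, 6.56, 6.87 and 6.55 in WSR-1 and 6.05, 5.81, 6.01 and 6.53 in WSR-2. The populations were separated by a small margin, between 6.55 and 6.53, and the difference was -0.68 (SE 0.18). The TGFB inducible early growth response factor (AI528680), a zinc finger transcription factor, was above background on all 8 arrays and read from 6.69 to 6.97 in WSR-1 and from 6.27 to 6.57 in WSR-2. Its difference was -0.43 (SE 0.11), and in EtOH it was 0.20 (SE 0.16). Mammalian achaete scute homolog 1, a proneural transcription factor, had the largest difference of the 20, -0.83 (SE 0.26), but its WSR-1 arrays ranged from 6.50 to 7.98 and overlapped the WSR-2 range of 6.21 to 6.54. The RFX-associated ankyrin-containing protein, a subunit of the complex that binds MHC class II promoters, lay 1 column from AI451396, in the same row, and diagonally from AI451201. It read 7.24 and 7.21 on the second female and male WSR-1 arrays, 5.96 and 6.29 on the first, and 5.76 to 5.95 in WSR-2. On that spot 2 WSR-1 arrays were high and the other 2 lay just above the WSR-2 level. Delta-like 1 homolog, a membrane protein with EGF-like repeats, completed the 10 at -0.34 (SE 0.10).

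The lower genes had differences from -0.83 to -0.34, and those in the other direction ran from 0.14 to 0.34. The only bright ones among them were the clones for Fanconi anemia complementation group A and for Bdp. The Fanconi protein (AI448464), a part of the complex that repairs DNA crosslinks, read 10.28, 10.24, 10.33 and 9.96 in WSR-1 and 10.46, 10.62, 10.39 and 10.39 in WSR-2. No WSR-2 array was below any WSR-1 array, and the difference was 0.26 (SE 0.0945, limma adjusted p = 0.676). The median of its 27 neighbours was 0.02. Bdp, a DNA-binding protein of the ARID family, differed by 0.22 (SE 0.09) beside neighbours with a median of 0.24, and its difference was -0.06 after local centring. In EtOH the Fanconi clone differed by 0.09 (SE 0.12) and Bdp by -0.13 (SE 0.14).

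The clones for solute carrier family 25 member 5, an ADP/ATP carrier of mitochondria, for Mcm4, a subunit of the replicative helicase, and for heat-responsive protein 12 were printed side by side in row 3 of grid h, columns 4 to 6. Their differences were 0.24, 0.20 and 0.24 and their neighbours' medians 0.14, 0.12 and 0.14. The carrier was above background on 0 WSR-1 and 3 WSR-2 arrays, at least 1.13-fold. A different clone titled as a member of the same carrier family, AI413945 in grid a, differed by -0.14, and a second clone of that member (AI414501) by 0.06. Ubiquitin-conjugating enzyme E2H was above background on 0 WSR-1 and 3 WSR-2 arrays, at least 1.06-fold, and the Ki 67 proliferation antigen on 0 and 2, at least 1.05-fold. Guanylate nucleotide binding protein 2, an interferon-induced GTPase, differed by 0.18 (SE 0.07) without overlap. Melanocyte specific gene 2 at 0.34 and t-complex-associated testis expressed 3 at 0.34 overlapped between the populations. For melanocyte specific gene 2 the difference was 0.63 in females and 0.05 in males.

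**Figure D4:**
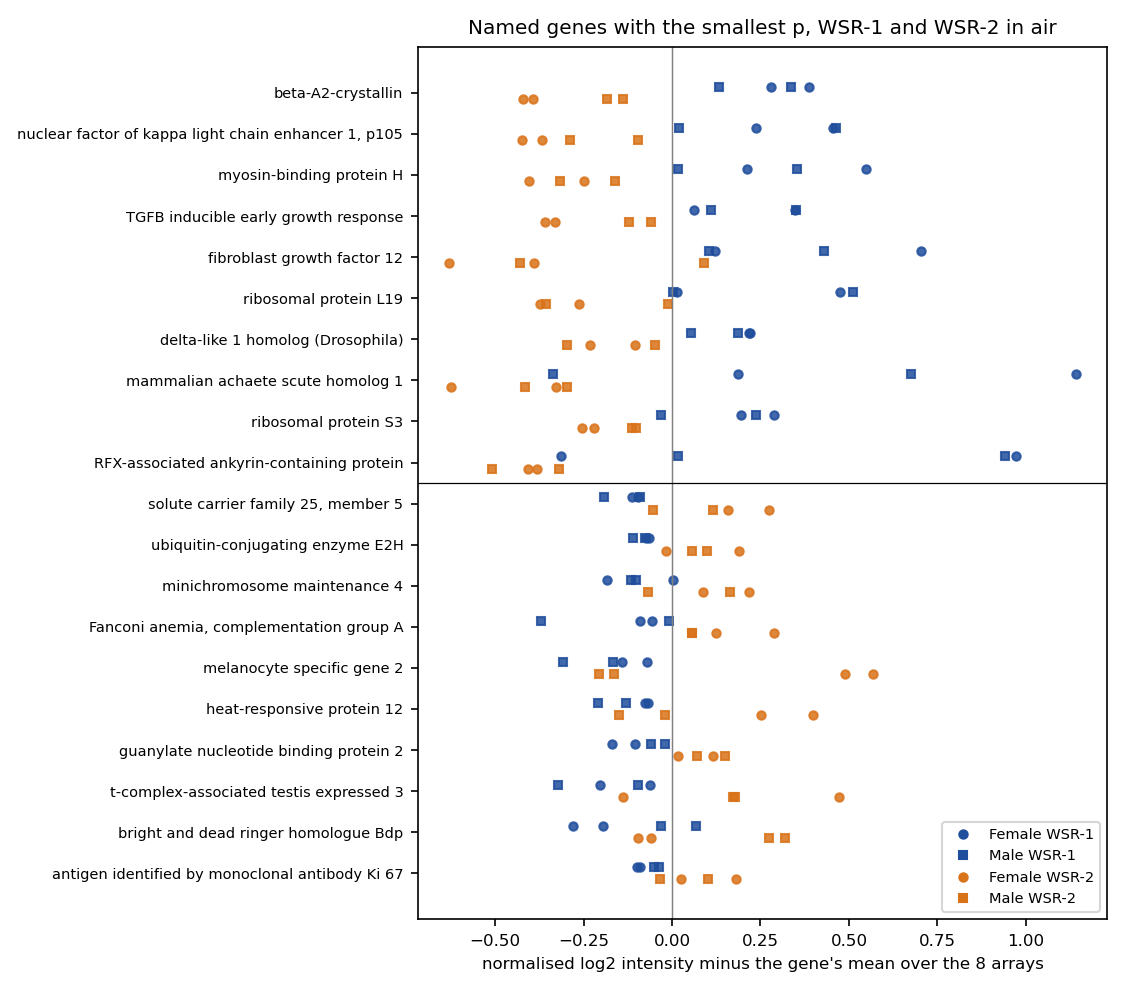
Level of each of the 20 named genes with the smallest p on the 8 air arrays, as normalised log2 intensity minus the gene's mean over those arrays; blue is WSR-1, orange WSR-2, circles female and squares male. Genes above the line were lower in WSR-2 and genes below it higher, and 6 of the 20 had overlapping populations.

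Gene groups relevant to seizures, alcohol and stress showed no called member, and their medians lay between -0.05 and 0.08, beside 0.01 for all clones and 53.2% of all clones higher in WSR-2. Members of a group were found by words in their titles. Of 10 immediate early genes, which neurons switch on within minutes of strong activity, 5 were higher and 5 lower, with a median of 0.002. Nuclear receptor subfamily 4 group A member 2 (AI429298), an orphan receptor induced by activity, read 5.97, 6.06, 5.88 and 6.05 in WSR-1 and 6.56, 6.13, 6.23 and 6.13 in WSR-2. It did not overlap, differed by 0.27 (SE 0.12, limma adjusted p = 0.676) and lay beside neighbours with a median of 0.14. Early growth response 1 was above background on 0 WSR-1 and 1 WSR-2 arrays.

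Glutamate synapse genes numbered 6, of which 4 were higher and 2 lower, with 0 at an unadjusted p under 0.05. The obligatory NMDA receptor subunit NMDA1 differed by 0.001 (SE 0.07) and the postsynaptic scaffold discs large homolog 4 by 0.10 (SE 0.11). Among 4 GABA and neuropeptide genes 2 were higher and 2 lower, and the GABA-B1a receptor, an inhibitory metabotropic receptor, measured 7.84 ± 0.417 in WSR-1 and 7.80 ± 0.152 in WSR-2 (SD, n = 4 each). Ion channel and calcium genes were 14 higher and 8 lower of 22. The lower ones included the beta 1 subunit of the sodium-potassium pump (AI323965), -0.33 (SE 0.12, unadjusted p = 0.021 in limma), a spot in grid d whose neighbours had a median of -0.14. A second, brighter clone of that subunit (AI450706) differed by 0.06 (SE 0.13). Over the array, 21 gene titles had 2 clones, and the 2 differences had the same sign in 11 of them. Synaptic vesicle genes were 1 higher and 4 lower of 5.

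Groups of stress and cell maintenance genes had no called member either. Heat shock and chaperonin clones were 4 higher and 4 lower of 8, and endoplasmic reticulum and integrated stress clones 6 and 2 of 8. Apoptosis clones were 2 higher and 9 lower of 11 with a median of -0.02 and none had an unadjusted p under 0.05. Antioxidant and alcohol metabolism clones were 7 higher and 5 lower of 12, steroid and glucocorticoid clones 4 and 3 of 7, and histone and chromatin clones 10 and 3 of 13. Ribosome and translation clones were 6 higher and 10 lower of 16, and the 3 with an unadjusted p under 0.05 (L19, S3 and L30; 7.18% of all clones came under it) lay in grid e of field 1, columns 16 to 18. Proteasome and ubiquitin clones were 5 higher and 8 lower of 13, cell cycle and replication clones 11 and 8 of 19, mitochondrial clones 12 and 11 of 23 and cytoskeleton clones 13 and 13 of 26.

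The remaining groups held signalling and regulatory genes. Kinases and phosphatases were 44 higher and 42 lower of 86, receptors 16 and 18 of 34, small GTPases and G proteins 10 and 10 of 20, and TGF-beta and matrix adhesion clones 16 and 10 of 26. Zinc finger and homeobox clones were 19 higher and 33 lower of 52, with a median of -0.03. Cytokine and immune clones were 17 higher and 25 lower of 42, with a median of -0.03. Among them CD28, a co-stimulatory receptor of T cells, read 7.78 and 7.73 on the second female and male WSR-1 arrays. On the other 6 arrays it was at most 5.88. It was above background on 2 WSR-1 arrays and 0 WSR-2 arrays, at least 1.86-fold higher in WSR-1 (limma adjusted p = 0.676, unadjusted p = 0.0516), and its spot lies in the area of grid b of field 1 described above. These examples were chosen after their values were seen.

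Markers of brain cell types gave no called difference. In a bulk extract fewer cells of a type and less RNA per cell cannot be told apart. Of the oligodendrocyte genes, Nkx6-2 was above background on no array, and Enpp2 differed by -0.04 (SE 0.12). The 3 microglial markers had lower means in WSR-2, with a summed linear level of 193 to 205 intensity units in WSR-1 and 178 to 192 in WSR-2. These ranges were apart only narrowly, at 193.3 against 192.5, and 3.92% of all single clones did not overlap. Cd14, a receptor for bacterial lipopolysaccharide, differed most at -0.18 (SE 0.08, unadjusted p = 0.043 in limma). Fcer1g at -0.01 (SE 0.04) and Mpeg1 at -0.06 (SE 0.11) differed by less than their SE. Summed levels overlapped for 2 neuronal markers (132 to 160 in WSR-1, 136 to 164 in WSR-2), for the interneuron marker somatostatin (63.4 to 89.5 and 73.2 to 99.3), for 3 astrocyte markers (622 to 682 and 498 to 722) and for 3 vascular markers (188 to 203 and 187 to 230). Haemoglobin alpha (1418 to 1780 and 1410 to 1742) and the choroid plexus marker transthyretin (793 to 969 and 848 to 999) overlapped as well. The part of these markers in the gene differences was not tested.

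Sex was examined next, because female and male pools of one population share their breeding history. The difference between the populations correlated at 0.08 (Spearman over 4696 clones) between the female and the male arrays, and 52.8% of clones had the same sign. Over the 1236 clones above background on all 32 arrays it was -0.08. In the test of the interaction, male difference minus female difference, no clone of 4696 was called by limma (0%), the smallest adjusted p being 0.188, and 354 (7.54%) came under 0.05 before adjustment. In 243 of those 354 (68.6%) the female WSR-1 arrays were the group farthest from the middle of the 4 sex and population groups, compared with 26.7% of the other clones. The male WSR-1 arrays held that place in 6.

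The 6 named genes with the smallest p in that interaction all set the 2 female WSR-1 arrays apart. In 3 of them the female WSR-1 arrays were at the top. SH3 domain protein 3 read 6.86 and 6.95 in female WSR-1 and between 6.12 and 6.54 on the other 6 arrays, an interaction of 1.00 (SE 0.20, limma adjusted p = 0.269). Homeodomain interacting protein kinase 1, a nuclear kinase, read 6.66 and 6.73 against 5.90 to 6.35, an interaction of 0.86 (SE 0.22). Sterol O-acyltransferase 1, which esterifies cholesterol, read 7.32 and 7.06 against 6.24 to 6.67, an interaction of 0.78 (SE 0.21).

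The other 3 had female WSR-1 at the bottom. ARL6, a small GTPase of the cilium, read 6.28 and 6.10 in female WSR-1 and from 6.62 to 7.19 on the other arrays, an interaction of -1.19 (SE 0.21, limma adjusted p = 0.269). PL6 read 6.15 and 6.28 against 6.75 to 7.23, an interaction of -1.001 (SE 0.20). Cathepsin W, a cysteine protease of cytotoxic lymphocytes, read 6.08 and 6.02 against 6.34 to 6.70, an interaction of -0.77 (SE 0.19). The 6 spots lay outside the areas described on the map, and their neighbours had median population differences between -0.05 and 0.07. Those medians average the sexes, so they cannot show whether neighbouring spots shared the interaction. With local centring 20 clones passed in limma, 6 higher and 14 lower, with SH3 domain protein 3 and PL6 among them. The interaction estimated on the EtOH arrays had the opposite tendency over all clones (Spearman -0.22, 42.0% of signs shared). Among the 354 clones with an unadjusted interaction p under 0.05 in air, however, 58.5% had the same sign in EtOH.

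The WSR EtOH arrays offer a second measurement of the same population difference in other mice, since none of the 8 air arrays enters it. There limma called 0 of 4696 clones, with no adjusted p under 0.859, and 232 (4.94%) came under 0.05 before adjustment. Differences in air and in EtOH correlated at 0.36 (Spearman over 4696 clones, 61.6% with the same sign) and at 0.41 over the clones above background on all 32 arrays. Of the 337 clones with a small p in air, 245 (72.7%) had the same sign in EtOH, compared with 60.8% of the rest. The higher ones had a median of 0.14 in EtOH and the lower ones -0.05, so the positive differences kept more of their size than the negative ones. An unadjusted p under 0.05 in both, in the same direction, was found for 27 clones, 16 higher and 11 lower, and 1 clone had opposite directions. No named gene was among the 27. The air and EtOH arrays share control-spot sets within a replicate number, and the part of those sets in the correlation was not tested.

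**Figure D5:**
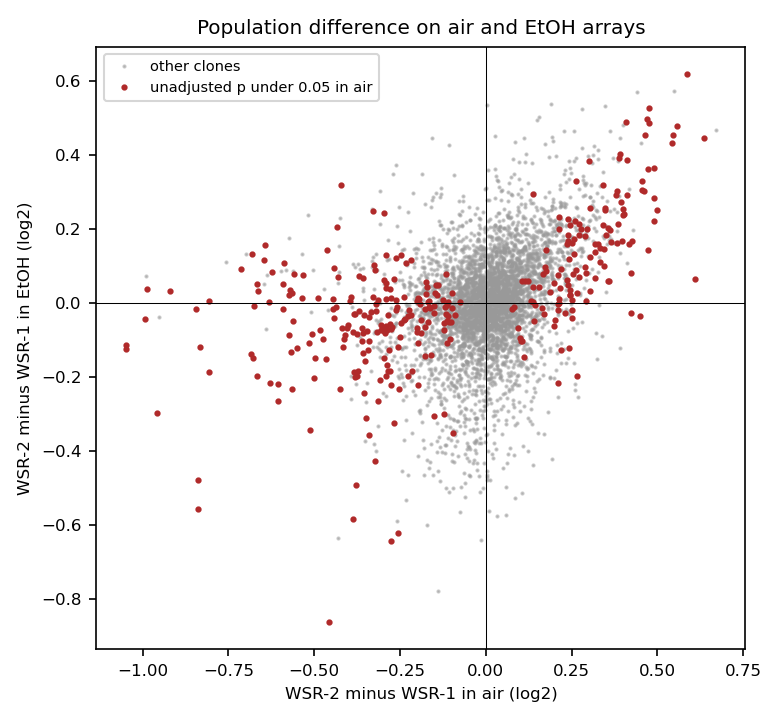
Population difference WSR-2 minus WSR-1 on the 8 air arrays (horizontal, log2) and on the 8 EtOH arrays (vertical, log2); each point is 1 of 4696 clones, and red points had an unadjusted p under 0.05 in air. Red points to the right lie mostly above 0 in EtOH, with a median of 0.14, while those to the left centre near 0, with a median of -0.05.

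Some of the 27 clones lay in an area already described, and others lay elsewhere. EST clone AI449280 lies in the block around AI451201, and AI413421 and AI427874 lie in the area of grid d of field 1. EST clones AI447249, AI447237, AI449511, AI448488 and AI447242, with air differences from 0.46 to 0.55 and EtOH differences from 0.43 to 0.53, lie in the corner of grid b of field 2. EST clone AI448810 in grid d of field 2 differed by -0.46 in air (SE 0.16) and by -0.86 in EtOH (SE 0.25). Between WSP-2 and WSP-1 in air it differed by -0.82 with a wide SE of 0.56. Of its 38 neighbours, 35 were lower in air (median -0.10), and the adjacent clone AI449924 was also one of the 27. EST clone AI447483 in grid e of field 2 differed by 0.41 in air and 0.39 in EtOH beside neighbours with a median under 0.01. Its air difference was 0.89 in females and -0.07 in males. The female WSR-1 arrays read 6.05 and 5.98, while the male ones, at 6.77 and 6.84, lay within the WSR-2 range. EST clone AI428902 differed by -0.32 in air (-0.51 in females, -0.13 in males) and by -0.43 in EtOH, beside neighbours with a median of 0.01. Outside the 27, with an unadjusted p of 0.178 in EtOH (limma), was the bright EST clone AI450057 (field 2, grid f, column 17, row 6). It read 10.06, 10.13, 11.62 and 11.13 in WSR-1 and 8.89, 9.56, 10.09 and 11.05 in WSR-2. It was lower in WSR-2 within each sex but overlapped between sexes, differed by -0.84 (SE 0.21, limma adjusted p = 0.676) in air and by -0.56 (SE 0.39) in EtOH, and its 47 neighbours had a median of -0.005. The seizure-prone line gave a similar difference for this clone, -0.69 (SE 0.24) for WSP-2 minus WSP-1 in air. These clones were chosen after their values were seen.

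The test of the population difference in EtOH less that in air called 0 of 4696 clones in limma (smallest adjusted p = 0.185, 176 or 3.75% with an unadjusted p under 0.05). By the smallest p among named genes, p105 at 0.70 (SE 0.17), the TGFB inducible response factor at 0.64 (SE 0.18) and beta-A2-crystallin at 0.43 (SE 0.13) had a more positive difference in EtOH than in air. On the other side were F-box only protein 17, a ubiquitin ligase component, at -0.31 (SE 0.11), cytochrome P450 3A25 at -0.40 (SE 0.15) and Bdp at -0.35 (SE 0.13). Each of the 6 had an adjusted p of 0.998.

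The seizure-prone line gives the same contrast of replicate numbers, WSP-2 minus WSP-1 in air, in populations with no breeding shared after the founding stock. There 0 of 4696 clones passed in limma (smallest adjusted p = 0.861, 183 or 3.90% at an unadjusted p under 0.05). The differences in WSR and WSP correlated at 0.23 over 4696 clones, with 57.8% of signs shared. Of the 337 clones with a small p in WSR, 232 (68.8%) had the same sign in WSP, compared with 56.9% of the rest. Over the clones above background on all 32 arrays the correlation was 0.13. No clone passed the test that the 2 lines differ in this contrast (limma smallest adjusted p = 0.941, 211 or 4.49% at an unadjusted p under 0.05). Its named genes with the smallest p included guanylate nucleotide binding protein 2, 0.18 in WSR and -0.55 in WSP, the proteasome subunit non-ATPase 4, a ubiquitin receptor, with an interaction of 0.55 (SE 0.16), and transketolase of the pentose phosphate pathway, at -0.43 (SE 0.12). ABCG1, a sterol exporter of the ATP-binding cassette family, stood at -0.37 (SE 0.13), ARL6 at 0.58 (SE 0.18) and the TGFB inducible response factor at -0.54 (SE 0.18).

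The likeness of whole arrays was compared between these 2 ways of grouping them, by population and by control-spot set. Clone levels were taken as deviations from the mean of the 32 arrays, and each of the 8 WSR air arrays was correlated with each array of the other groups over the clone spots, which had no part in forming the sets. Pairs in the same set correlated at 0.45 on average (Spearman, 11 pairs, 0.15 to 0.62). The 6 of those pairs that joined a WSR with a WSP array correlated at 0.44 (0.37 to 0.50). Pairs of an air and an EtOH array of the same population in different sets correlated at 0.02 (27 pairs, -0.20 to 0.23), pairs of the same replicate number in other lines and sets at -0.02 (58 pairs), and pairs of different replicate number at -0.03 (96 pairs). Arrays of a set were alike across lines, and the lowest correlation among those 6 pairs was above the highest of the 27 pairs that shared a population but not a set. The 27 pairs all differed in treatment, whereas most of the 6 joined air arrays with air arrays. Pairs of WSR air arrays of the same population were not part of this comparison. The part of treatment in the gap was not tested.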

How the data were processed

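Prefrontal cortex RNA was measured on 32 single-colour cDNA arrays. The deposited files give a spot intensity and 1 background intensity per array, which the authors had not subtracted, per the file headers and values. The authors' deposited series table holds log2 values; it ranks spots as the intensities do (Spearman 1), is blank where intensity did not exceed background (100% of spots match on each of the 8 arrays), and its medians on the 8 arrays ran from 7.47 to 8.19, with scale and centring unknown. Software for image analysis is not given in the sources used here.

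Here, intensities were corrected with normexp (offset 50) over 5355 spots, 192 control and 467 unidentified spots were left out, and 4696 clone spots were quantile normalised over 32 arrays and tested on the log2 scale with limma 3.58.1 (R 4.3.3; empirical Bayes with a trend, sex as a block, Benjamini-Hochberg threshold 0.05). Counts of above-background spots compare intensity with the array's background. Array measures used exact permutation over 70 splits. Control-spot sets came from average-linkage clustering on 1 minus Spearman correlation, divided at height 0.75. The scripts' statistics were tested on simulated data. Files hold 0 further columns of per-sample values.

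Gene titles are those of the array's design and can be old. Named genes are clones titled with 1 gene, with the higher population's mean above the 25th percentile, taken by the smallest p: 10 per direction for the populations and 3 per direction for each interaction. Members and lists were chosen with earlier results of these data known. The labels do not say whether pools of a group came from separate litters or cohorts, so p-values measure the spread between pools. Pool numbers 1 and 2 recur in every group. Deviations of same-numbered pools correlated between -0.07 and 0.46 over the 6 pairs of groups. The 0.46 was that of female with male WSR-1, and the next highest was 0.15. The main fit did not take the numbers to pair samples, so likeness between same-numbered WSR-1 arrays is not modelled in it. A fit with pool number as a block is given below. The number of arrays limits the precision. Alternatives covered background correction, normalisation, filters, the arrays in the fit, local centring and each array left out. 1 marker gene is not reported here.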

Additional observations from a re-analysis of the deposited data

How the results depend on the processing

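The count of 1 clone called between the populations in air became 0 under median scaling, cyclic loess, the authors' deposited table (2222 clones), a filter for clones above background on 4 or more arrays, quantile normalisation over the arrays in the fit, a control-spot covariate, local centring, and female or male arrays alone. It was 2 with the raw signal, with normexp offset 16 and without the sex term (AI451201 and AI451396), and 4 with all 32 arrays in one fit, with AI429192 higher and AI451201, AI451396 and AI451194 lower. In settings chosen after the data were seen, the air and EtOH arrays together gave 0, and clones above background on all 32 arrays gave 0. AI451201, above background on 0 WSR-2 air arrays, was not among the clones tested under that last filter or in the authors' deposited table. The 0 in these settings is therefore no retest of it. The fit with pool number as a replicate block called 0 (378 with an unadjusted p under 0.05). Leaving out 1 array gave 0 to 1; without the first female WSR-1 array the clone called was AI451396. AI451201 kept its direction in each setting that tested it, from -1.81 to -0.34.

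The sex interaction called 20 under local centring and 0 to 1 with 1 array left out, the 1 without the first female WSR-2 array. In EtOH the count was 1 with all 32 arrays and 0 to 0 otherwise. The treatment interaction called 1 with all 32 arrays, 2 with array sets as a random block, and 0 to 39 with 1 array left out, the 39 without the second male WSR-1 EtOH array. The line interaction called 0 to 68 with 1 array left out: 28 and 8 without the first and second female WSP-1 air array, 26 and 68 without those of WSP-2. The random block of sets was not fitted for the population differences in air or for the sex interaction, where no set held more than 1 array of the fit. It was not fitted for the population difference in EtOH either, where the largest set held 2 arrays. Of 491 values of the named differences, 467 kept direction and side of the threshold. Most of these differences had an adjusted p of 0.60 to 0.68 in the main limma fit, so little could move them across it. The 18 values that lost the threshold all belonged to AI451201, the only clone that had passed it, and 5 values gained it. Bdp turned to -0.058 with local centring. The background difference ran from -1.79 to 2.59 and that of the median log2 from -0.0449 to 0.00424 with 1 array left out. The share above background differed by -16.2 to -6.92 points, the lowest without the first male and the highest without the first female WSR-2 array (exact permutation p from 0.0857 to 0.571). The cause of these shifts was not tested. The dimness of most clones limits the size of any difference that can be measured.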
